A study of Arabidopsis thaliana with 6 samples.

Results

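Expression of 8 Arabidopsis thaliana genes of the auxin-conjugating branch of the GH3 family was followed through messenger RNA sequencing of dark-grown seedlings in which auxin synthesis was targeted by an inhibitor or by mutation. Auxin itself was not measured in these data. The members are GH3.1, GH3.2, GH3.3, GH3.4, GH3.5, GH3.6, GH3.9 and GH3.17, chosen by locus name as the family members known to join amino acids to auxin, chiefly to indole-3-acetic acid (IAA). They are 8 of the 26185 loci for which any library holds a read, and all 8 were among them.

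GH3 proteins are acyl acid amido synthetases, enzymes that activate a small acid hormone and couple it to an amino acid. The members of this branch couple IAA to residues such as aspartate and glutamate, and the conjugates with these 2 amino acids are generally regarded as bound for breakdown. Several of the genes are themselves switched on rapidly by auxin through the ARF transcription factors, so they are widely used as auxin response genes and are described as a negative feedback on the free hormone. In the etiolated seedling, auxin drives hypocotyl elongation, the apical hook and growth of the young root.

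The 6 libraries form 3 groups of 2 biological repeats, all from 3-day-old seedlings that had been imbibed at 4 °C for 3 days, given some hours of light and then kept dark at 22 °C on MS, a mineral culture medium. Col_Kyn is wild-type Col-0 with kynurenine in the medium, at a dose that the labels give as 25 mM and that could not be checked; L-kynurenine blocks the aminotransferases of the TAA1 family, which carry out the opening step of the main route from tryptophan to IAA. wei8tar2_MS is a mutant line grown on MS without the inhibitor. According to its label (wei8-/- tar2+/-) both copies of WEI8, the gene also called TAA1, and a single copy of its relative TAR2 are mutated, and whether the pooled seedlings were selected by genotype is not stated. Col_MS is Col-0 on MS alone and served as the control of both comparisons, which therefore share its 2 libraries. Nothing in the labels says that the repeats were grown as separate cultures or links equal replicate numbers, so p-values measure the spread between these libraries.

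The libraries held 18.1 M to 31.8 M uniquely mapped reads (M for mega), and the shallowest was Col_Kyn replicate 2. Levels are given as CPM, the reads of a gene scaled to library size with TMM factors, and levels of different genes are set side by side per kilobase of the gene length listed in the deposited tables (CPM per kb). Differences are log2 fold changes with standard errors from edgeR's quasi-likelihood test on 21326 genes, and a gene is called where the p-value adjusted by Benjamini-Hochberg is under 0.05. TAA1 averaged 40.0 ± 2.20 CPM in Col_Kyn, 8.13 ± 0.329 CPM in wei8tar2_MS and 38.3 ± 0.607 CPM in Col_MS (SD, n = 2 each). TAR2 averaged 6.69 ± 0.558, 2.46 ± 0.629 and 9.10 ± 1.39 CPM in the same order of groups. Both transcripts were lower in the mutant line than in Col_MS (edgeR adjusted p = 0.000562 for TAA1 and 0.0301 for TAR2), and neither passed the test under kynurenine. Kynurenine inhibits the enzyme, so TAA1 transcript does not check the treatment. PORA, the etioplast protochlorophyllide reductase of dark-grown seedlings, was abundant in every library at 1097 to 1408 CPM, and transcripts of light-grown tissue were not absent. A list of 5 green-tissue genes summed to 4408 and 9912 CPM in Col_Kyn, 7165 and 7304 CPM in wei8tar2_MS and 5769 and 6354 CPM in Col_MS, with 4 of 5 higher in the mutant line without overlap (26.6% of genes were), and its part in the GH3 values was not tested.

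Levels per kilobase spread widely among the members. In Col_MS, GH3.5 was the most abundant at 47.4 ± 9.11 CPM per kb, above 92.9% of all loci with a read, and GH3.17 followed at 32.1 ± 0.332 CPM per kb (SD, n = 2). GH3.2 at 19.7 ± 12.1 and GH3.6 at 15.5 ± 1.61 CPM per kb overlapped in their Col_MS libraries. GH3.3 at 8.14 ± 0.709 and GH3.1 at 3.31 ± 1.22 CPM per kb came next, and both stood clear of their neighbours in that order. GH3.9 was near the detection limit at 0.0694 ± 0.0478 CPM per kb, and GH3.4 had no read in either Col_MS library.

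**Figure D1:**
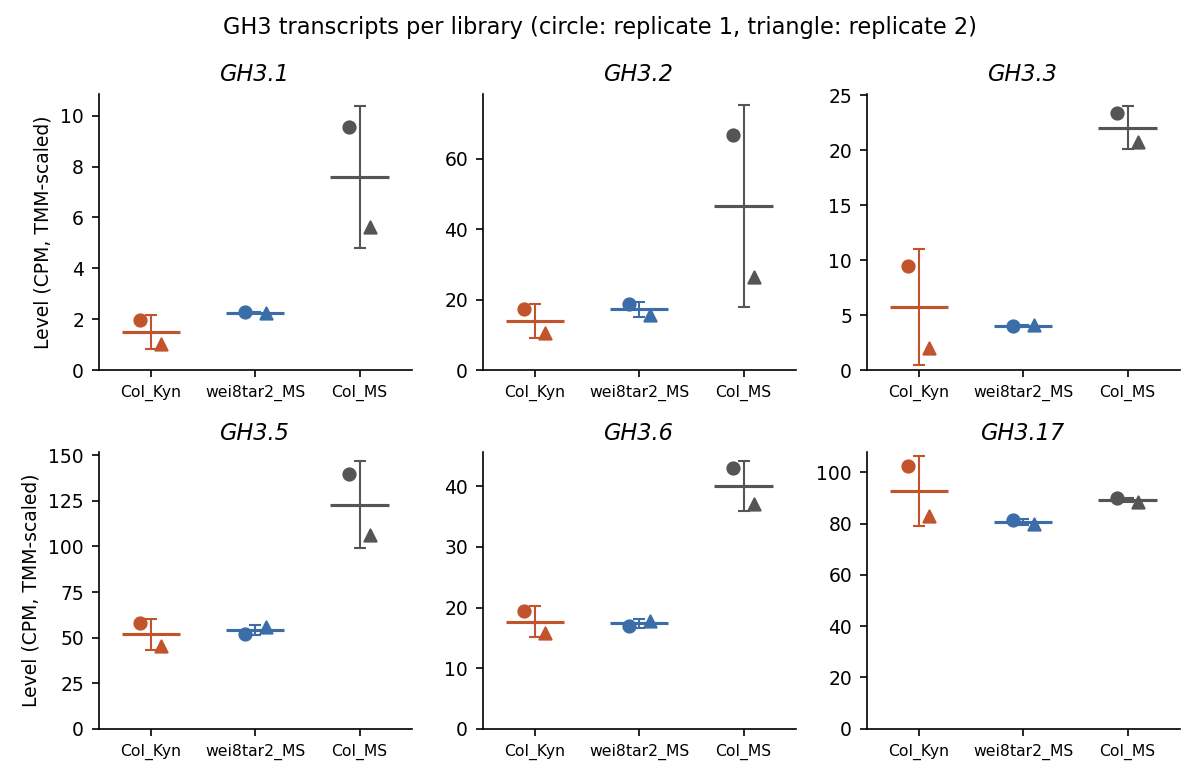
TMM-scaled CPM on a linear axis from 0 for the 6 testable members, with Col_Kyn left, wei8tar2_MS in the middle and Col_MS right in each panel. Points are libraries, long horizontal lines are group means and error bars are 1 SD (n = 2). GH3.1, GH3.2, GH3.3, GH3.5 and GH3.6 lie lower in Col_Kyn and wei8tar2_MS than in Col_MS, whereas GH3.17 lies between 79.9 and 102.5 CPM in all 6 libraries.

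GH3.5 and GH3.6 were lower in both the kynurenine-treated and the mutant group and passed the test in both. GH3.5, also called WES1, acts on IAA and on salicylic acid, and GH3.6, also called DFL1, takes its name from the dwarf, light-dependent growth of plants that overexpress it. GH3.5 (AT4G27260) had 57.9 and 45.65 CPM in the Col_Kyn libraries, 52.1 and 56.1 CPM in wei8tar2_MS and 139.7 and 106.3 CPM in Col_MS. GH3.6 (AT5G54510) had 19.45 and 15.85 CPM in Col_Kyn, 16.9 and 17.9 CPM in wei8tar2_MS and 43.0 and 37.1 CPM in Col_MS. For both genes every library of the treated and mutant groups was below every Col_MS library, and the treated and mutant libraries overlapped.

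Under kynurenine the log2 fold change against Col_MS was -1.25 ± 0.17 for GH3.5 (edgeR adjusted p = 0.0414) and -1.18 ± 0.14 for GH3.6 (edgeR adjusted p = 0.0264). In the mutant line it was -1.19 ± 0.17 for GH3.5 (edgeR adjusted p = 0.0405) and -1.20 ± 0.14 for GH3.6 (edgeR adjusted p = 0.0252). These 2 members made up the calls among the 6 members that could be tested, with 2 of 6 lower under kynurenine against a background of 0.22% of all tested genes called lower, and 2 of 6 lower in the mutant against 0.516%. DESeq2 called both genes in both comparisons, with adjusted p-values from 1.63e-08 to 1.70e-07, and it called 3 members lower in each comparison, against 1.47% of genes under kynurenine and 2.88% in the mutant line. The kynurenine calls of both genes were lost in each edgeR fit without 1 library other than Col_MS replicate 2, with adjusted p-values of 0.0534 to 0.151, and in the fit of the 2 groups alone (0.110 for GH3.6 and 0.133 for GH3.5); the wei8tar2 calls were lost without Col_MS replicate 1 (0.0551 for GH3.6 and 0.0753 for GH3.5) or without either wei8tar2_MS library (0.312 to 0.458). Their log2 fold changes stayed between -1.43 and -0.97 in those fits.

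In the TAIR10.1 RefSeq annotation GH3.5 lies on the plus strand at chr4:13653579-13656285 and GH3.6 on the minus strand at chr5:22130964-22133688, each with 3 exons. The 250 bases upstream of their annotated starts are shown because these 2 genes changed in both comparisons; those of GH3.2, GH3.3 and GH3.17 were added after the values were seen, GH3.2 and GH3.3 for their many matches and GH3.17 as the member whose level differed least. Each window reads 5′ to 3′ towards the gene and ends at the base before its start, at chr4:13653329-13653578 on the plus strand for GH3.5, chr5:22133689-22133938 on the minus strand for GH3.6, chr4:17579368-17579617 on the plus strand for GH3.2, chr2:9866563-9866812 on the minus strand for GH3.3 and chr1:9824919-9825168 on the plus strand for GH3.17. Capitals mark TGTCNN on either strand, the general form of the element that ARF proteins bind.
GH3.5: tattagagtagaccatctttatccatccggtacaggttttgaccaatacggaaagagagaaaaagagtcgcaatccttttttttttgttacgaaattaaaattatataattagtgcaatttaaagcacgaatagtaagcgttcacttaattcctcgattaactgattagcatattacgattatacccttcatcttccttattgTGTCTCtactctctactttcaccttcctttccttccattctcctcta
GH3.6: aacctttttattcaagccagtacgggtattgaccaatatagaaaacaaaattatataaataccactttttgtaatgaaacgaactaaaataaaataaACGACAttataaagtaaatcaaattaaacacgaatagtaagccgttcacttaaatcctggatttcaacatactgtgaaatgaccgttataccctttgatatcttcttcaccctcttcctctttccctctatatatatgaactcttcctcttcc
GH3.2: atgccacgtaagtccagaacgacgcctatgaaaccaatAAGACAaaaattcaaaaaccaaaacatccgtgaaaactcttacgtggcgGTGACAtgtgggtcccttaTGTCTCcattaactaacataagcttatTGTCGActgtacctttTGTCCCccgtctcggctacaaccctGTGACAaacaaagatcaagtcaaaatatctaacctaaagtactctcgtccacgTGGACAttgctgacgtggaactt
GH3.3: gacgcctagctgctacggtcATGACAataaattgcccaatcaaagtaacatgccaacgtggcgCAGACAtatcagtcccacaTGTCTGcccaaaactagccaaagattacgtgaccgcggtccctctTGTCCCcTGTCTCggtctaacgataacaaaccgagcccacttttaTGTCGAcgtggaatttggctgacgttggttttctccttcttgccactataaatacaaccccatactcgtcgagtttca
GH3.17: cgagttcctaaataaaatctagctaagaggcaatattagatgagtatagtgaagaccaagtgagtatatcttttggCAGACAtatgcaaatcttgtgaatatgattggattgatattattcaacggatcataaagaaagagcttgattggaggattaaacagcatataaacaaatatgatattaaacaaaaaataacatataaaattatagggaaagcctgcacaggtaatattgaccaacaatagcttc

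TGTCNN was found 7 times in the GH3.2 window and 6 times in that of GH3.3. Of the windows of this length upstream of 27443 protein-coding genes, 0.164% and 0.612% reach or exceed these counts. Shares of windows or genes given below refer to the same protein-coding genes, on the numbered chromosomes. The windows of GH3.5, GH3.6 and GH3.17 held 1 match each. Those of GH3.9 and GH3.1 held 3 and 2, and that of GH3.4 held none. At least 1 match occurs in 74.5% of all windows. Within 1000 bases TGTCNN occurred 8 times upstream of GH3.2, a count that 27.5% of genes reach or exceed. It occurred 12 times upstream of both GH3.3 and GH3.9, which 3.33% of genes reach or exceed, and 3 to 5 times upstream of the other members. The canonical element TGTCTC, which is contained in TGTCNN, began 144 bases upstream of GH3.2, 116 upstream of GH3.3 and 47 upstream of GH3.5 on the strand of the gene, and 10.9% of all windows hold it on either strand. The windows of GH3.1, GH3.4, GH3.6, GH3.9 and GH3.17 held no TGTCTC. Over 1000 bases, where 39.6% of genes have it, it also lay 806 bases upstream of GH3.1, 354 upstream of GH3.4 on the other strand and 546 upstream of GH3.5, at 566 and 1000 upstream of GH3.9, and nowhere upstream of GH3.6 or GH3.17. The element TGTCGG lay upstream of GH3.2 alone among the members, 605 bases out on the other strand, and 14.6% of genes have it within 1000 bases. The palindromic G-box CACGTG likewise occurred upstream of GH3.2 alone, at 27 and 839 bases. It lies in 6.49% of windows of 250 bases. Within 1000 bases 14.8% of genes have it, and 2.67% have it 2 or more times. These are matches of letters, and no binding was measured.

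The windows of GH3.5 and GH3.6 share the 14-base run cacgaatagtaagc, which begins 125 bases upstream of the start in both genes. No other protein-coding gene on the numbered chromosomes carries that run in its window on either strand, 2 of 27443 in all. The run was picked as the longest that these 2 windows share, so these 2 carriers were fixed beforehand. How often other runs of 14 bases recur was not tested. No other pair of the members shared a run longer than 13 bases between their windows.

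GH3.1, GH3.2 and GH3.3, which auxin is known to induce quickly, had lower levels in both groups, with larger log2 fold changes than GH3.5 and GH3.6 but also a larger spread, and none passed the edgeR test. GH3.3 acts with GH3.5 and GH3.6 in the control of adventitious rooting, and gain of GH3.2 activity, in the mutant ydk1, shortens the hypocotyl. GH3.1 (AT2G14960, chr2:6451319-6453797, minus strand) had 1.99 and 1.03 CPM in Col_Kyn, 2.28 and 2.25 CPM in wei8tar2_MS and 9.57 and 5.62 CPM in Col_MS. GH3.2 (AT4G37390, chr4:17579618-17582022, plus strand) had 17.5 and 10.6 CPM in Col_Kyn, 18.8 and 15.7 CPM in wei8tar2_MS and 66.8 and 26.4 CPM in Col_MS. GH3.3 (AT2G23170, chr2:9863855-9866562, minus strand) had 9.45 and 2.00 CPM in Col_Kyn, 4.00 and 4.10 CPM in wei8tar2_MS and 23.4 and 20.7 CPM in Col_MS. In none of the 3 genes did a Col_Kyn or wei8tar2_MS library reach the lower Col_MS library.

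Replicates disagreed widely for some of these genes. GH3.3 was 4.59-fold apart between the 2 Col_Kyn libraries, a wider gap than in 99.7% of tested genes, and GH3.2 was 2.53-fold apart between the 2 Col_MS libraries, wider than in 97.3% (ratios of CPM with a prior count of 2). In the wei8tar2_MS libraries these members differed by at most 1.20-fold.

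For GH3.1 the log2 fold change was -2.27 ± 0.36 under kynurenine (edgeR adjusted p = 0.0658) and -1.74 ± 0.35 in the mutant line (0.0674). DESeq2 called GH3.1 in both comparisons (adjusted p = 1.48e-05 and 0.00140), and edgeR did so without Col_MS replicate 2, at -2.58 and -2.05 (adjusted p = 0.0146 and 0.0195). Without Col_Kyn replicate 1 the kynurenine value of GH3.1 was -2.88 (edgeR adjusted p = 0.0924). For GH3.2 it was -1.71 ± 0.42 under kynurenine (edgeR adjusted p = 0.136) and -1.43 ± 0.41 in the mutant line (0.118). Those values rested on Col_MS replicate 1, without which they were -0.89 and -0.61; without Col_MS replicate 2 they were -2.21 and -1.92 and passed the test. For GH3.3 it was -1.88 ± 0.51 under kynurenine (edgeR adjusted p = 0.155) and -2.44 ± 0.53 in the mutant line (0.0734). Without Col_Kyn replicate 1 the kynurenine value of GH3.3 was -3.46 and passed the test (adjusted p = 0.0436), and without Col_Kyn replicate 2 it was -1.22 (0.0979). The wei8tar2 call of GH3.3 was gained in the fits without Col_Kyn replicate 1 (adjusted p = 0.00670) or replicate 2 (0.00524), in which its log2 fold change stayed at -2.44 and -2.43.

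Before adjustment, 5 of the 6 testable members were lower at p under 0.05 in each comparison, against 8.92% of tested genes under kynurenine and 11.3% in the mutant line. All 6 had at least 18 reads in every library, so none passed the filter through Col_MS alone. The treated and control libraries did not overlap for 5 of 6 members under kynurenine, all lower, against 23.4% of genes, and the mutant and control libraries did not overlap for 6 of 6, all lower, against 29.0%. The median log2 fold change of the 6 members was -1.48 under kynurenine and -1.32 in the mutant line, beside -0.02 over all tested genes in both. These counts describe the members and were not tested as a list.

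**Figure D2:**
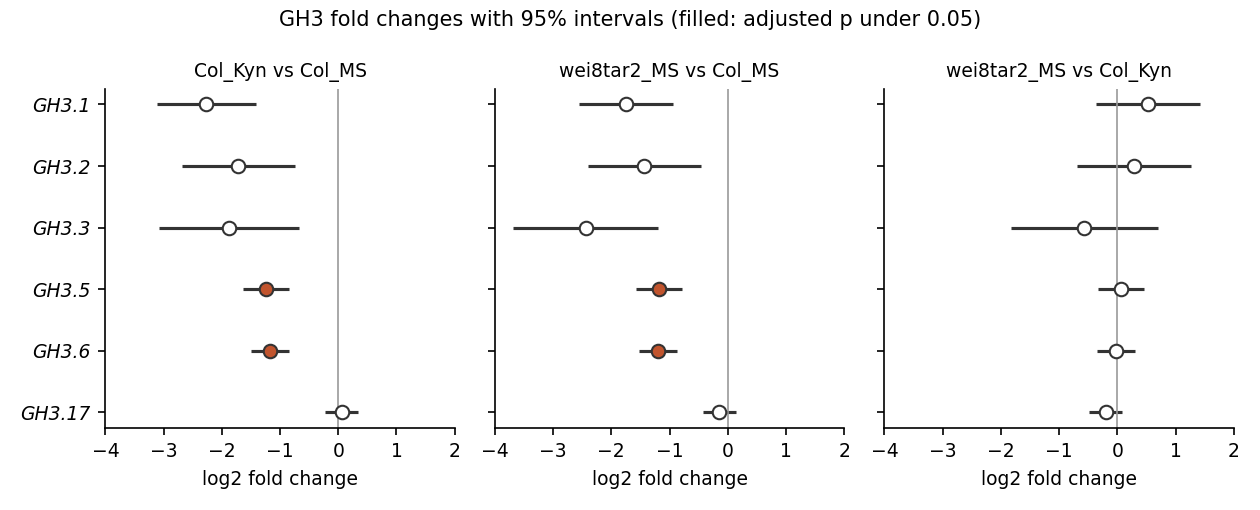
Log2 fold changes from edgeR with 95% intervals for the 6 testable members, for Col_Kyn over Col_MS, wei8tar2_MS over Col_MS and wei8tar2_MS over Col_Kyn. The intervals of GH3.1, GH3.2, GH3.3, GH3.5 and GH3.6 lie below 0 in both comparisons with Col_MS and include 0 in the direct comparison, and those of GH3.17 include 0 in all 3.

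GH3.17 (AT1G28130, chr1:9825169-9828118, plus strand, 4 exons), an enzyme that prefers glutamate and whose gene is known to respond little to applied auxin, showed no change that passed the test. It had 102.5 and 83.1 CPM in Col_Kyn, 81.5 and 79.9 CPM in wei8tar2_MS and 89.85 and 88.5 CPM in Col_MS. The Col_Kyn libraries lay on either side of the Col_MS libraries, and both wei8tar2_MS libraries lay below them by less than the gap between the Col_Kyn replicates. Its log2 fold change was 0.06 ± 0.12 under kynurenine, with a 95% interval of -0.23 to 0.35, and -0.14 ± 0.12 in the mutant line, with an interval of -0.43 to 0.14 (edgeR adjusted p = 0.851 and 0.549). The intervals of GH3.5 under kynurenine, -1.64 to -0.85, and in the mutant line, -1.58 to -0.79, do not reach those of GH3.17, a contrast between genes that was not itself tested.

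Summed over the 8 members, the level per kilobase was 78.5 and 59.4 CPM per kb in Col_Kyn, 66.5 and 66.5 CPM per kb in wei8tar2_MS and 143.9 and 108.5 CPM per kb in Col_MS. GH3.17 took 47.0% and 50.3% of that sum in Col_Kyn and 44.1% and 43.2% in wei8tar2_MS, against 22.5% and 29.35% in Col_MS. GH3.5 took 28.4% and 29.6% in Col_Kyn and 30.2% and 32.5% in wei8tar2_MS, against 37.4% and 37.75% in Col_MS. The order of the top members therefore differed between groups: GH3.17 led in every Col_Kyn and wei8tar2_MS library, with 33.4 ± 4.92 and 29.0 ± 0.402 CPM per kb, and GH3.5 came below it with 20.0 ± 3.33 and 20.8 ± 1.08 CPM per kb, whereas GH3.5 led in both Col_MS libraries. With the spliced transcript length of RefSeq in place of the listed length, a choice made after seeing the data, GH3.17 took 50.5% of the sum in Col_Kyn, 45.6% in wei8tar2_MS and 27.3% in Col_MS, and the order of the 8 members within each group was the same. A share rises when the other members fall, so the GH3.17 share carries no information on GH3.17 itself beyond the levels above.

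**Figure D3:**
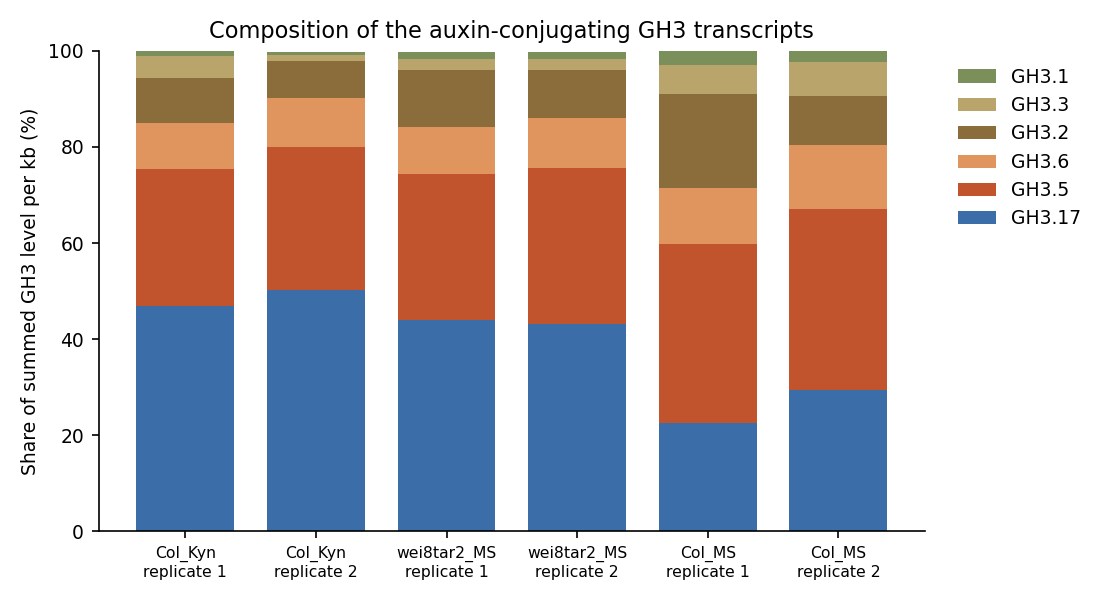
Percent of the summed CPM per kb of the 8 members that each member took, stacked for every library (GH3.4 and GH3.9 are too small to draw), with Col_Kyn left, wei8tar2_MS in the middle and Col_MS right. GH3.17 takes 43.2% to 50.3% in the 4 Col_Kyn and wei8tar2_MS libraries, against 22.5% and 29.35% in the Col_MS libraries.

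Below these 2 genes the order varied less. GH3.6 and GH3.2 overlapped with each other in every group, and GH3.3 and GH3.1 came after them, clear of each other in wei8tar2_MS and Col_MS and overlapping in Col_Kyn. GH3.9 and GH3.4 were last in all 3 groups.

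GH3.4 and GH3.9 stayed under the filter on low counts and were not tested. GH3.4 (AT1G59500, chr1:21854493-21856614, minus strand), an enzyme close in sequence to GH3.2, had 2 and 1 reads in Col_Kyn, 0 and 1 reads in wei8tar2_MS and no read in either Col_MS library. Counts this low are at or under the 3 reads that a count of 0 allows, equal to between 0.0943 and 0.165 CPM at these depths, so no difference was detectable at this depth. GH3.9 (AT2G47750, chr2:19560127-19563960, minus strand, 4 exons), linked to primary root growth, had 2 and 6 reads in Col_Kyn, 11 and 8 in wei8tar2_MS and 3 and 9 in Col_MS. Scaled to CPM, every pair of groups overlapped. An annotated long noncoding RNA, AT2G09955, runs on the opposite strand over 509 bases of GH3.9, and without strand information its reads cannot be told apart from those of the gene.

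Reads that map to more than 1 place are missing from counts of uniquely mapped reads, and whether any read mapped to more than 1 member was not tested. The longest identical stretch between transcripts was 65 bases between GH3.2 and GH3.4, 56 between GH3.2 and GH3.3, 42 between GH3.5 and GH3.6, 33 between GH3.3 and GH3.4 and 30 between GH3.5 and GH3.17, and at most 26 bases for the other pairs. No other annotated gene overlaps the 7 members besides GH3.9.

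Set directly against kynurenine-treated wild type, the mutant line differed in none of the 6 testable members, against a background of 0.0281% of genes called. With all 6 libraries no member had an unadjusted edgeR p under 0.05, against 4.32% of genes, and DESeq2 called none, against 0.233%. The log2 fold change of wei8tar2_MS over Col_Kyn was 0.06 ± 0.17 for GH3.5, with a 95% interval of -0.33 to 0.45, and -0.03 ± 0.14 for GH3.6, with an interval of -0.36 to 0.30. Intervals were wider for GH3.1 (0.53 ± 0.38, -0.37 to 1.42), GH3.2 (0.28 ± 0.42, -0.70 to 1.26) and GH3.3 (-0.57 ± 0.54, -1.83 to 0.70), so the intervals of these 3 genes include differences of more than 1 log2 unit. The value of GH3.3 rested on the Col_Kyn library kept: it was 1.01 without Col_Kyn replicate 1 (edgeR adjusted p = 0.971) and -1.21 without Col_Kyn replicate 2 (edgeR adjusted p = 0.120). Before adjustment both p-values were under 0.05. GH3.17 differed by -0.20 ± 0.12 (-0.49 to 0.09), with both wei8tar2_MS libraries below both Col_Kyn libraries, as in 18.8% of genes, and GH3.1 was the member with both above, as in 16.8%. A p that misses the threshold does not show that the 2 groups were alike.

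Across the 6 libraries, GH3.5 and GH3.6 followed each other most closely, with a Pearson r of 0.994 between their log2 CPM. Among GH3.1, GH3.2, GH3.3, GH3.5 and GH3.6 the r of every pair was 0.854 or more, and GH3.17 had an r of 0.199 to 0.544 with these 5. The 6 points fall into the same 3 groups for every gene, so r here largely restates the difference from Col_MS and is given as a description.

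By the same measure, the tested genes most like GH3.5 were AGP31 (0.997), HD2B (0.996) and AT2G25980 (0.996), and those most like GH3.6 were CIB1 (0.998), AT4G34540 (0.998) and AT1G76400 (0.996). The closest to GH3.3 were AT5G62290 (0.999), LBD16 (0.993) and AT1G07210 (0.991), of which LBD16 encodes an auxin-induced regulator of lateral root formation. AT1G29355 (0.995), AT3G24240 (0.994) and AT1G52060 (0.994) were closest to GH3.1, and AT1G70180 (0.996), AGD2 (0.993) and TOZ (0.992) to GH3.2. For GH3.17 the highest values were 0.986 for AT5G53480, 0.982 for ACA1 and 0.982 for COX19-2. Of 17991 genes compared, 24 exceeded an r of 0.99 with GH3.5, 22 with GH3.6, 9 with GH3.1, 3 each with GH3.2 and GH3.3, and 0 with GH3.17.

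The rest of the GH3 family comprises 11 loci, among them JAR1, which conjugates jasmonic acid to isoleucine, and PBS3, which acts in salicylic acid synthesis. Of these, 10 had a read and 9 were tested, and none was called by edgeR in either comparison with Col_MS. Before adjustment 6 of 9 were lower under kynurenine, against 8.92% of all tested genes, with 1 higher, and 5 of 9 were lower in the mutant line, against 11.3%. DESeq2 called none of them under kynurenine, against 1.47% of genes called lower, and 3, all lower, in the mutant line, against 2.88%. The 3 were AT1G48660 (-2.28 ± 0.45, edgeR adjusted p = 0.0669), AT5G13360 (-0.89 ± 0.20, 0.0770) and AT5G13370 (-0.72 ± 0.18, 0.0894), which the annotation gives as GH3 family proteins without a symbol. AT1G48660 had 12.2 and 4.98 CPM in Col_Kyn, 3.67 and 4.46 CPM in wei8tar2_MS and 25.9 and 13.6 CPM in Col_MS, so its libraries were lowest in the mutant line and did not overlap with Col_MS in either comparison. Under kynurenine the smallest p-values belonged to AT1G23160 (-2.49 ± 0.58, edgeR adjusted p = 0.124), AT5G13360 (-0.65 ± 0.20, 0.192) and AT5G51470 (-1.92 ± 0.66, 0.216). JAR1 had a log2 fold change of 0.09 ± 0.13 under kynurenine and 0.16 ± 0.13 in the mutant line, chosen for naming after its values were seen.

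Conjugation is partly reversed by the ILR1-like amidohydrolases, which release IAA from some amino acid conjugates. Of 7 such genes 6 were tested and none was called by edgeR in either comparison. Their summed level was 213 and 208.6 CPM in Col_Kyn, 228.7 and 226.3 CPM in wei8tar2_MS and 182.3 and 182.0 CPM in Col_MS. The log2 fold change was positive for all 6 in both comparisons, with a median of 0.15 under kynurenine and 0.24 in the mutant line. All 6 lay above Col_MS without overlap in the mutant line, against 26.6% of genes, and 3 of 6 did so under kynurenine, against 20.2%. The smallest p-value in both comparisons belonged to ILL6, whose product also cleaves jasmonoyl-isoleucine, with log2 fold changes of 0.43 ± 0.14 under kynurenine (edgeR adjusted p = 0.197) and 0.64 ± 0.14 in the mutant line (0.0699; DESeq2 adjusted p = 0.00545).

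Other fates of IAA and the regulators of these promoters were looked at in the same way. Of 5 genes for IAA oxidation, glucosylation and methylation 4 were tested and none was called, and their summed level ranged from 77.2 to 80.0 CPM in Col_Kyn, from 78.0 to 80.8 CPM in wei8tar2_MS and from 77.1 to 81.2 CPM in Col_MS. IAMT1, which methylates IAA, had the smallest p-value among them in the mutant line (-0.50 ± 0.21, edgeR adjusted p = 0.237). None of 6 ARF genes known to act on GH3 genes was called. Their summed level was 332.1 and 316.2 CPM in Col_Kyn, 327.2 and 328.1 CPM in wei8tar2_MS and 304.4 and 272.6 CPM in Col_MS, higher without overlap in both comparisons. Gene by gene, 2 of 6 lay above Col_MS without overlap in each comparison, against 20.2% of genes under kynurenine and 26.6% in the mutant line. These were ARF6 and ARF7, the most abundant of the list, at 118.1 and 67.1 CPM in Col_MS. Under kynurenine 1 of 6 lay below Col_MS without overlap, against 23.4% of genes. The smallest p-value was that of ARF7, an activator of auxin-induced genes in the hypocotyl, at 0.31 ± 0.11 in both comparisons (edgeR adjusted p = 0.223 under kynurenine and 0.167 in the mutant line).

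Of 14 other genes known as early auxin-induced, 12 were tested, and edgeR called none in either comparison. Before adjustment 4 of 12 were lower in each, against 8.92% of genes under kynurenine and 11.3% in the mutant line, and DESeq2 called 1 lower in each, against 1.47% and 2.88%. That gene was HAT2, a homeodomain-leucine zipper factor, at -0.51 ± 0.11 under kynurenine (edgeR adjusted p = 0.116) and -0.50 ± 0.11 in the mutant line (0.0762). LBD16 had -0.83 ± 0.25 and -0.86 ± 0.25, and LBD29, another lateral organ boundaries factor, had -1.19 ± 0.35 and -0.78 ± 0.33, in the same order of comparisons. The median log2 fold change of the 12 was -0.35 under kynurenine and -0.26 in the mutant line, nearer 0 than that of the GH3 members, a contrast that was not tested.

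RNA came from whole seedlings, so fewer cells of a type and less RNA per cell cannot be told apart. Root hair markers were also lower in both groups than in Col_MS. The 3 genes summed to 13.9 and 11.3 CPM in Col_Kyn, 16.0 and 15.1 CPM in wei8tar2_MS and 19.7 and 30.3 CPM in Col_MS. All 3 were lower without overlap in both comparisons, against 23.4% of genes under kynurenine and 29.0% in the mutant line. Within Col_MS the GH3 members summed to 372.4 and 284.9 CPM in replicates 1 and 2, and 2 libraries cannot relate these sums to root hairs. None of the 3 root hair genes was called by edgeR. DESeq2 called COBL9 lower under kynurenine (adjusted p = 0.0486), against 1.47% of genes. Of 6 root meristem and cap markers, PLT1, PLT2 and SMB, 3 in all, lay below Col_MS without overlap in each comparison. The shares of all tested genes that did so were 23.4% under kynurenine and 29.0% in the mutant line. Under kynurenine their log2 fold changes were -2.95 ± 0.63, -1.83 ± 0.57 and -1.92 ± 0.50. In the mutant line they were -2.545 ± 0.588, -1.92 ± 0.57 and -2.27 ± 0.50. SHR lay above Col_MS in both comparisons and WOX5 in the mutant line (log2 fold change 1.46 ± 0.47). Higher without overlap were 20.2% of genes under kynurenine and 26.6% in the mutant line. None of the 6 was called by edgeR, and DESeq2 called SMB lower in the mutant line, against 2.88% of genes. The 6 summed to 84.95 to 89.8 CPM in Col_Kyn, 85.2 to 90.85 in wei8tar2_MS and 74.7 to 88.0 in Col_MS. SCR and SHR made up most of that sum, at 51.4 and 25.8 CPM in Col_MS, so it does not describe the others. Means in Col_Kyn, wei8tar2_MS and Col_MS were 0.137, 0.189 and 1.13 CPM for PLT1 and 0.153, 0.151 and 0.588 CPM for PLT2. For SMB they were 0.473, 0.377 and 1.85 CPM. PLT1 and PLT2 had 2 to 6 reads per library in Col_Kyn and wei8tar2_MS, near the detection limit. A list of 6 camalexin and defence genes summed to 70.3 and 59.95 CPM in Col_Kyn, 63.05 and 65.9 CPM in wei8tar2_MS and 779 and 54.8 CPM in Col_MS, where replicate 1 stood apart. A list of 10 seed reserve genes summed to 4.58 to 32.4 CPM in Col_Kyn, 29.3 to 48.0 CPM in wei8tar2_MS and 21.35 to 89.7 CPM in Col_MS. All 9 tested had a negative log2 fold change under kynurenine (median -2.09), and 7 of 9 in the mutant line (median -0.32). None was called by edgeR. DESeq2 called 3 lower under kynurenine, against 1.47% of genes, and 1 lower in the mutant line, against 2.88%. Every gene of these 4 lists had a read in at least 1 library. Their part in the GH3 values was not tested. Col_MS replicate 1 was also the library with the higher level of GH3.1, GH3.2, GH3.3, GH3.5 and GH3.6 in its group. Without it the log2 fold changes of these 5 members lay between -2.35 and -0.61 over both comparisons. Those fits keep 1 Col_MS library, and the part of replicate 1 in the GH3 values was not tested.

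**Figure D4:**
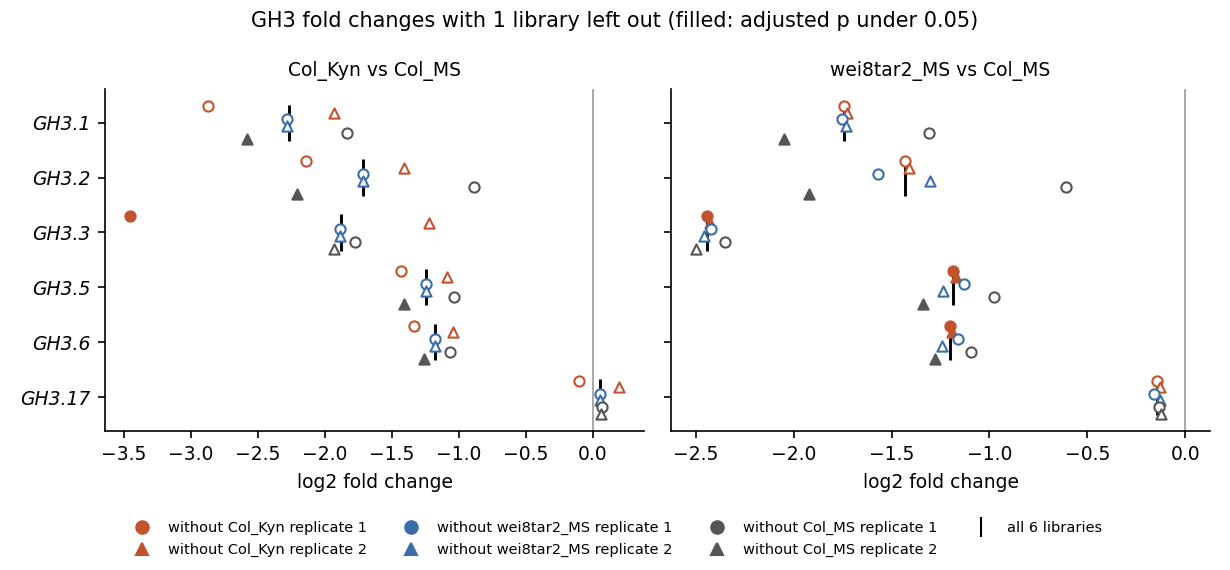
Log2 fold changes of the 6 testable members for Col_Kyn over Col_MS and wei8tar2_MS over Col_MS with all 6 libraries and with each library left out in turn. GH3.1, GH3.2, GH3.3, GH3.5 and GH3.6 stay below 0 in every fit. Leaving out Col_MS replicate 1 moves GH3.2 most among the members. The value of GH3.3 under kynurenine moves further, from -1.88 to -3.46, when Col_Kyn replicate 1 is left out.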

How the data were processed

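Messenger RNA of whole etiolated seedlings was sequenced in 6 libraries. The submitters' processing notes name TopHat 1.3.0 and the genome build TAIR10. The deposited tables give, per the file headers, the raw count of uniquely mapped reads per locus, and the authors also gave RPKM in the same deposited tables. Count sums equal the header totals, RPKM recomputed from counts and listed lengths to within a relative 8.46e-14, and loci that are not listed were taken as 0. Which program counted the reads, with which strand setting and gene models, is not given in the sources used here. Symbols, coordinates and upstream sequence came from the RefSeq TAIR10.1 annotation, matched by locus name (25911 of 26185 loci, all 8 members), and no coordinates were converted.

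The tests used edgeR 4.0.16 in R 4.3.3 (TMM factors 0.964 to 1.03, filterByExpr by group, quasi-likelihood F-test, 1 coefficient per group over all 6 libraries). A standard error is the size of the log2 fold change over the square root of its F statistic, and intervals are 95% intervals. P-values were adjusted over all 21326 tested genes. Alternatives were RLE factors, no filter, DESeq2 1.42.0 on unfiltered counts, limma-voom (limma 3.58.1), fits of the 2 groups alone, a replicate block and leaving out each library. The pipeline was tested on simulated data. Depth limits precision: a count of 0 allows 3 reads, and this floor covers counting error only. Replicates differed beyond sampling noise in every group, so no library was counted as a copy of another.

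All 8 members are named in every comparison. From the lists of related genes, TAA1, TAR2, called genes and at most 3 others per list with the smallest unadjusted p are named, and for each testable member the 3 genes of highest Pearson r among those with a mean of at least 1 log2 CPM. JAR1, PBS3, SHR, SCR and WOX5 are named beyond this rule. The members and lists were chosen with earlier results of these data known.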

Additional observations from a re-analysis of the deposited data

How the results depend on the processing

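The direction of GH3.1, GH3.2, GH3.3, GH3.5 and GH3.6 in both comparisons with Col_MS held under all 12 alternatives, whereas the number of calls depended on the setting. Of 216 member fold changes under these alternatives, 171 kept their direction and their side of the threshold, 18 lost and 21 gained a call, and 6 changed sign. Under kynurenine 2 members were called with RLE factors or limma-voom, 3 with DESeq2, 5 with no filter and 0 when the wei8tar2_MS libraries were left out of the fit, and 0 to 4 without 1 library (4 without Col_MS replicate 2, 1 without Col_Kyn replicate 1 and 0 in the other fits). In the mutant line the counts were 2 with RLE factors or limma-voom, 3 with DESeq2, 5 with no filter and 3 without the Col_Kyn libraries, and 0 to 4 without 1 library (4 without Col_MS replicate 2, 3 without either Col_Kyn library and 0 without any other). None was called in the direct comparison. Among all genes, 78 were called under kynurenine, against 409 with no filter, 735 with DESeq2, 50 with limma-voom, 0 from the 2 groups alone and 0 to 1080 without 1 library (41 without Col_Kyn replicate 1, 42 without Col_MS replicate 1, 1080 without Col_MS replicate 2 and 0 in the other fits). In the mutant line 230 were called, against 1113 with no filter, 1313 with DESeq2, 352 from the 2 groups alone and 4 to 1719 without 1 library (362 and 284 without Col_Kyn replicate 1 and 2, 5 and 4 without wei8tar2_MS replicate 1 and 2, 52 without Col_MS replicate 1 and 1719 without Col_MS replicate 2). In the direct comparison 6 were called, against 26 with no filter, 55 with DESeq2, 11 from the 2 groups alone and 4 to 17 without 1 library (17 without either Col_MS library). A group cut to 1 library is assumed to vary like the others. The sign of GH3.17 under kynurenine changed without Col_Kyn replicate 1, and without 1 library its log2 fold change ran from -0.10 to 0.20. In the direct comparison signs changed for GH3.2 without Col_Kyn replicate 2 (range -0.0020 to 0.71), GH3.3 without Col_Kyn replicate 1 (-1.21 to 1.01), GH3.5 without Col_Kyn replicate 2 (-0.084 to 0.24), and GH3.6 without Col_Kyn replicate 1 or wei8tar2_MS replicate 1 (-0.15 to 0.13). The cause was not tested.

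With the replicate number as a block, 4 members were called under kynurenine and 5 in the mutant line, with 130, 367 and 12 genes called under kynurenine, in the mutant line and in the direct comparison. Deviations of equal replicate numbers from their group means correlated at 0.202 between Col_Kyn and Col_MS. The values were 0.022 between wei8tar2_MS and Col_MS and -0.039 between Col_Kyn and wei8tar2_MS. The labels state no link between equal replicate numbers, so they were not treated as pairs. Correlations of this kind cannot show whether such a link existed. GH3.1 had 62 and 18 reads in Col_Kyn, so its values are limited by depth as well as by the spread.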
